A study of Mus musculus with 2 samples.

Results

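The replication-dependent histone genes encode the H1, H2A, H2B, H3 and H4 proteins that package newly copied DNA. They were taken as all genes of the table whose symbol begins with Hist1h, Hist2h, Hist3h or Hist4h, which gave 68 of 23227 genes: 6 for H1, 18 for H2A, 19 for H2B, 12 for H3 and 13 for H4. Of these, 54 belong to the Hist1 cluster on chromosome 13, 10 to Hist2 on chromosome 3, 3 to Hist3 on chromosome 11 and 1 to Hist4 on chromosome 6, per the GENCODE M21 annotation. PolyA RNA was sequenced from mouse cells that carry floxed, intact alleles of Dicer (Dicer f/f, called WT here) and from cells without Dicer (Dicer -/-, called KO). Both are immortalised monoclonal lines of adult mesenchymal stem cells, called fibroblasts under cell type, grown in Alpha-MEM with serum and lysed before confluence. Each genotype is thus 1 clone, so that a difference of the clones and a difference of the genotypes cannot be told apart.

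Dicer cuts microRNA precursors into mature microRNAs. Histone messages of this class are unusual among messenger RNAs. In cycling cells most of them end just behind a short conserved stem-loop and carry no poly(A) tail. They are made in S phase and destroyed when DNA synthesis ends. The stem-loop is bound by SLBP and the cut is made by a complex that contains the U7 small nuclear RNA. Some of these genes can also use a polyadenylation signal further downstream, which gives a longer, polyadenylated message that a polyA selection can capture.

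The stem-loop is shown for the 6 of the 8 most abundant genes in which it was found, because it marks where the short message would end and how much annotated sequence lies behind it. The sequences are from GENCODE M21 transcripts (GRCm38), read 5′ to 3′, and capitals mark the 16 bases of the stem-loop.
Hist1h1c: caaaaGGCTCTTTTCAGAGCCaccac
Hist1h1d: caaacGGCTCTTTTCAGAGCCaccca
Hist3h2a: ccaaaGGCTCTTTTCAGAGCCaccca
Hist1h2bg: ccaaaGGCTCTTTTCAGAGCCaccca
Hist2h3c1: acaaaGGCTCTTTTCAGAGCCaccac
Hist1h4i: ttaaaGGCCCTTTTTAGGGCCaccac
The histone stem-loop was searched by its 16-base consensus on the transcript's own strand behind the stop codon. It was present in 45 of the 67 genes with an annotated stop codon, and it began 21 to 58 bases behind that codon. Of the 22 genes without it, 17 had under 60 annotated bases behind the stop codon, so their annotated end may lie before the stem-loop. Of the 45, 25 held the letters printed for Hist1h1c, while 7 genes, all of type H4, carried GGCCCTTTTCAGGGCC. In the first 100 bases behind the stop codon of 20966 other protein-coding genes, it was found in 5 (0.0238%), among them H2afx. None was found in the transcripts searched for Hist1h2bc, which has 2 exons there, and Hist2h2be. Only the longest annotated transcript with a stop codon was searched for each histone gene, so another transcript may hold a stem-loop.

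The labels give 1 sample per genotype, yet each of the authors' mean values resolved into whole reads of 2 libraries, called deeper and shallower by their total. These held 15369250 and 14135422 reads for WT, and 15718369 and 14969532 for KO. The labels do not say whether the 2 libraries of a genotype are separate cultures, so every p-value below measures only the spread between them, which may be technical. Values are normalised reads, that is, reads divided by the library's size factor. Of the markers fixed for mesenchymal cells, 10 of 11 passed the minimum of 20 normalised reads and Thy1 was listed at 0 in all 4 libraries. Of the 10, 2 were called lower in KO and 0 higher by the 2-fold rule used below. That rule called 8.56% of all genes above the minimum lower and 8.92% higher. The median log2 ratio over the list was -0.13. The 2 lower markers were Col1a1 and Col1a2, the chains of type I collagen, at 2.31-fold and 2.06-fold. Their part in the histone values was not tested. Summed markers of haematopoietic, endothelial, epithelial, pluripotent and germ cells stayed between 0 and 19.3 per library. Dicer1 itself had 804 and 943 in WT and 573 and 557 in KO (authors' deposited adjusted p = 0.497), and a value over the whole gene does not show whether a part of it is deleted.

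Of the 68 histone genes, 8 reached a mean of 20 normalised reads over both genotypes, 53 were detected below it, and 7 had 0 reads in all 4 libraries. Among the 8, 7 were at least 2-fold higher in KO with a 95% counting interval that excluded a ratio of 1, and 0 were lower. Over all 11710 genes above that minimum, the same rule called 8.92% higher and 8.56% lower. The authors' deposited table gave an adjusted p below 0.1 for 4 of the 8, all higher in KO, against 5.56% of all genes higher and 5.34% lower. With limma on the 4 libraries, 3 of the 8 were higher at an adjusted p below 0.05, against 4.61% of all genes higher and 4.14% lower, and 0 were lower. For 7 of the 8, each KO library exceeded each WT library, which holds for 30.4% of all genes. In all 8 the deeper WT library was above the shallower one. Without the shallower WT library, 4 of the 8 were called higher, and Hist1h1c, Hist1h4i and Hist2h2be fell short of 2-fold. Hist2h2be also did without the deeper KO library and Hist1h4i without the shallower KO library, which left 6 each. Hist1h1d, Hist1h2bg and Hist2h3c1 had WT means below 20, so they passed the minimum only through KO and had to be higher there. The counts over the 8 are therefore a description and support nothing on their own. Of the 5 with a WT mean of at least 20, 4 were called higher and Hist3h2a was not.

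**Figure D1:**
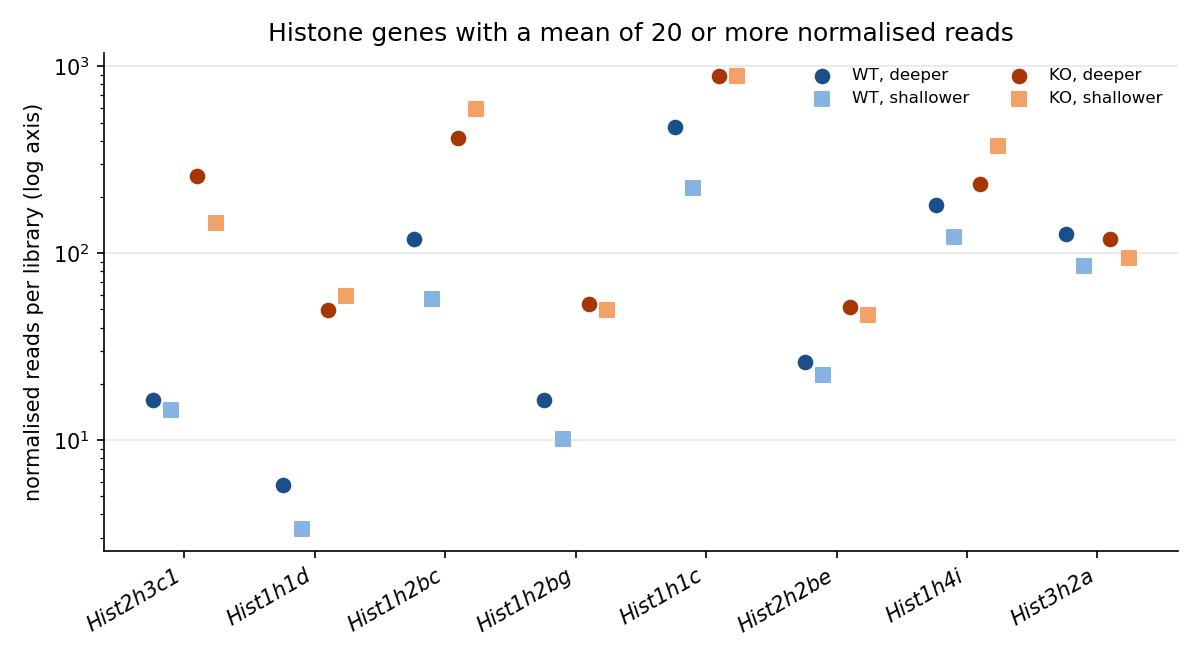
Normalised reads (log axis) of the 8 histone genes with a mean of 20 or more, ordered by their ratio of KO to WT. Each point is 1 library, with circles for the deeper and squares for the shallower library of a genotype. Hist2h3c1 lies near 15 in WT and at 259 and 145 in KO, while the WT and KO points of Hist3h2a overlap.

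Linker histones of the H1 type bind the DNA between nucleosomes. Hist1h1c, which encodes H1.2, had 473 and 223 normalised reads in the deeper and shallower WT libraries and 888 and 891 in KO. The WT libraries differed from each other by 2.12 times and both KO libraries lay above them. The ratio of means was 2.55 (95% interval 2.34 to 2.79), with an adjusted p of 0.0107 (the authors' deposited table) and of 0.0886 (limma). In the deeper libraries alone the ratio was 1.88, below the 2-fold limit, and without the deeper WT library it was 3.99. Hist1h1d, which encodes H1.3, rose from 5.78 and 3.36 to 49.7 and 58.7. Its 11.8-fold rise (6.03 to 26.6) had an adjusted p of 0.00141 (the authors' deposited table) and of 0.0297 (limma). Hist1h1e, which encodes H1.4, was below the minimum, with 5.78 and 6.73 in WT and 18.4 and 17.9 in KO, a ratio of 2.90 (1.48 to 6.10). Of the other H1 genes, Hist1h1a and Hist1h1b had ratios of 1.4 and 1.56 with intervals that include 1. The testis gene Hist1h1t had 1 read in all, in KO.

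H2A and H2B form the dimers at the flanks of the nucleosome. The H2B gene Hist1h2bc had 119 and 57.2 normalised reads in WT and 412 and 593 in KO. Its groups did not overlap, and it rose 5.72-fold (4.87 to 6.75), with an adjusted p of 4.69e-05 (the authors' deposited table) and of 0.0360 (limma). The size depends on the WT library used: the ratio was 8.79 without the deeper WT library and 4.24 without the shallower one, and 3.48 in the deeper libraries alone and 10.4 in the shallower ones. Hist1h2bg had 16.4 and 10.1 in WT and 53.3 and 49.8 in KO. Its ratio of 3.89 (2.52 to 6.23) met the size rule, while the authors' deposited table has an adjusted p of 0.113 and limma gave 0.0695. Hist2h2be had 26.0 and 22.4 in WT and 51.5 and 46.8 in KO. Its ratio of 2.03 (1.42 to 2.93) was just past the size rule, with an adjusted p of 0.623 (the authors' deposited table) and of 0.166 (limma), and the deeper libraries alone gave 1.98. Of the 13 other detected H2B genes, 7 had a higher mean in KO and 6 a lower one. Hist1h2bk was the only detected histone gene that the size rule, without a minimum, called lower. It had 10 WT reads and 1 KO read, a ratio of 0.0856 (0.00197 to 0.602). Of its 50-base windows, 74.2% are shared with other histone genes.

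Of the 14 detected H2A genes, 11 had a higher mean in KO and 3 a lower one, and 1 was above the minimum. This was Hist3h2a, the most abundant of them in both genotypes. It had 126 and 85.2 normalised reads in WT and 120 and 94.5 in KO. The groups overlapped and the ratio was 1.01 (0.835 to 1.23). By limma the 95% interval of its log2 difference ran from -0.83 to 0.90, so that a change of up to about that size was not detectable here. Hist1h2ae had 17.4 and 12.3 in WT and 11.0 and 10.9 in KO (ratio 0.741, interval 0.409 to 1.33). Hist2h2aa1 had 2.89 and 3.36 in WT and 23.9 and 22.9 in KO, a ratio of 7.48 (3.20 to 21.4). Its groups did not overlap, but 89.2% of its 50-base windows are shared with other histone genes. Hist1h2ad had all 7 of its reads in 1 KO library.

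H3 and H4 form the tetramer at the core of the nucleosome. Hist2h3c1 had 16.4 and 14.6 normalised reads in WT and 259 and 145 in KO. Each KO library was far above WT although they differed from each other by 1.79 times. It rose 13.1-fold (9.02 to 19.6), with an adjusted p of 8.41e-04 (the authors' deposited table) and of 0.0181 (limma). Its neighbour Hist2h3c2-ps had 8.68 and 1.12 in WT and 37.7 and 15.9 in KO, a ratio of 5.47 (2.77 to 12), and 63.5% of its windows are shared, mostly with Hist2h3c1. Hist1h3g had 8.68 and 5.61 in WT and 15.6 and 26.9 in KO, a ratio of 2.98 (1.60 to 5.88). It shares 54.1% of its windows with other histone genes. All 12 H3 genes had a higher mean in KO, which holds for 48.4% of all detected genes. Among the H4 genes, Hist1h4i had 180 and 122 in WT and 235 and 374 in KO. Its ratio of 2.02 (1.75 to 2.32) was just past the size rule, with an adjusted p of 0.329 (the authors' deposited table) and of 0.149 (limma), and the deeper libraries alone gave 1.31 and the shallower ones 3.06. Hist4h4 had 16.4 and 13.5 in WT and 25.8 and 17.9 in KO, a ratio of 1.46 (0.900 to 2.42). Hist1h4k, with 71.5% of its windows shared, had 5.78 and 0 in WT and 13.8 and 11.9 in KO. Its ratio was 4.45 (1.80 to 13.2). Of the 13 H4 genes, 12 had a higher mean in KO.

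**Figure D2:**
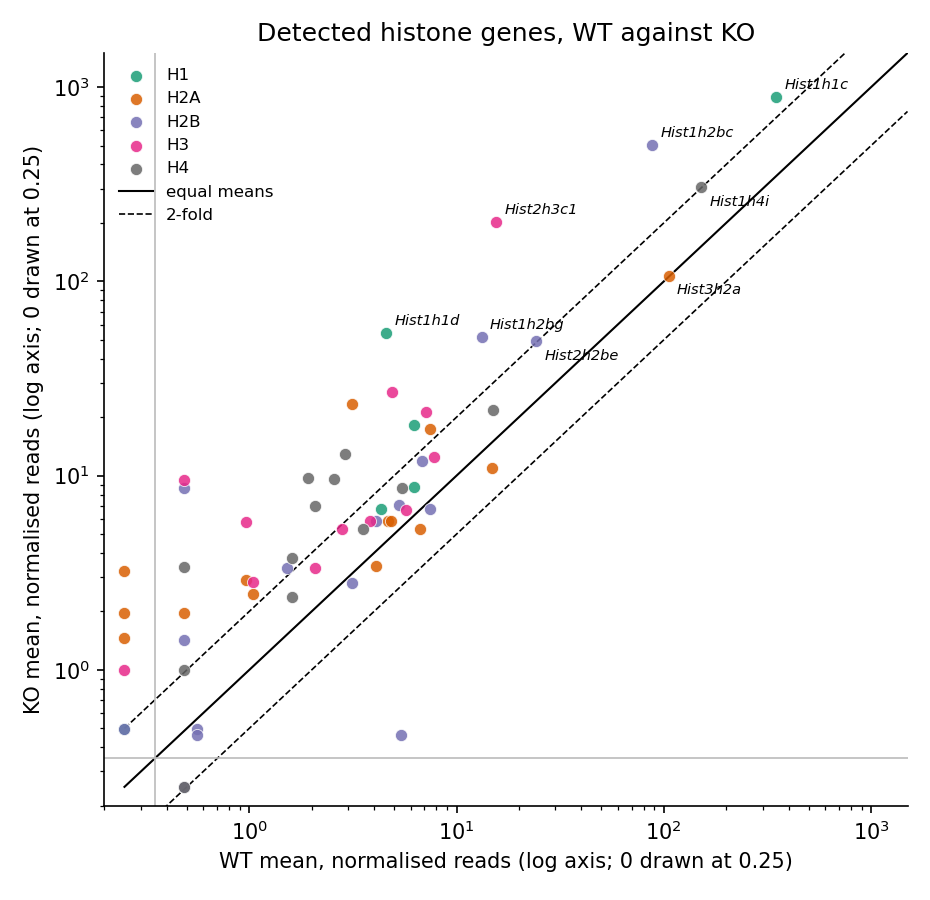
Mean normalised reads in WT (x axis) and KO (y axis) of the 61 detected histone genes on log axes, with a mean of 0 drawn at 0.25 behind the grey lines. The solid line marks equal means and the dashed lines a 2-fold difference. Of the 61 points, 51 lie above the solid line and Hist1h2bk lies alone below the lower dashed line among genes with reads in both genotypes.

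With no minimum, the size rule called 20 of the 61 detected histone genes higher and 1 lower, against 8.43% and 9.08% of all detected genes. In 29 of the 61 each KO library exceeded each WT library and in 2 each lay below, against 25.6% and 26.0%. Below the minimum, 43 of the 53 detected histone genes had a higher mean in KO, against 46.1% of all detected genes in that range. The size rule called 13 of the 53 higher and 1 lower, against 7.42% and 10.2% of all such genes, and in 22 each KO library exceeded each WT library, against 15.5%. Their summed reads were 179 and 173 in WT and 344 and 368 in KO. Each of the 53 had means of at most 14.9 in WT and 26.8 in KO. Of the 53, 6 had reads in KO alone, with 1 to 7 reads each. Hist1h4n and Hist3h2ba had 1 read each, in WT. The 7 genes at 0 were Hist1h2aa and Hist1h2ba, which encode testis forms, and Hist1h2ao, Hist1h2ap, Hist1h2bq, Hist1h2br and Hist2h2aa2. The last 5 share 88.5% to 100% of their 50-base windows with other histone genes. A count of 0 allows up to 3 reads in a library.

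The sums by type weight each type by its abundant members. H1 summed to 493 and 247 in WT and to 967 and 988 in KO, a ratio of 2.64. H2A summed to 182 and 126 in WT and to 193 in both KO libraries, a ratio of 1.25. H2B summed to 191 and 132 in WT and to 566 and 740 in KO, a ratio of 4.04. The KO libraries were thus above the WT libraries in all 3 of these types, by the least in H2A. H3 went from 54.0 and 50.4 to 362 and 244, a ratio of 5.80. H4 went from 223 and 156 to 325 and 456, a ratio of 2.06. Single genes carry much of some sums: without the most abundant member, the ratio was 4.12 for H1, 1.79 for H2A, 2.04 for H2B and 2.74 for H3. All histone genes together summed to 1142 and 711 in WT and to 2413 and 2621 in KO, a ratio of 2.72 (2.57 to 2.87). That interval covers counting error only and not the spread between libraries. The ratio was 2.11 in the deeper libraries alone and 3.69 in the shallower ones. It was 2.20 without the shallower WT library and 3.54 without the deeper one.

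**Figure D3:**
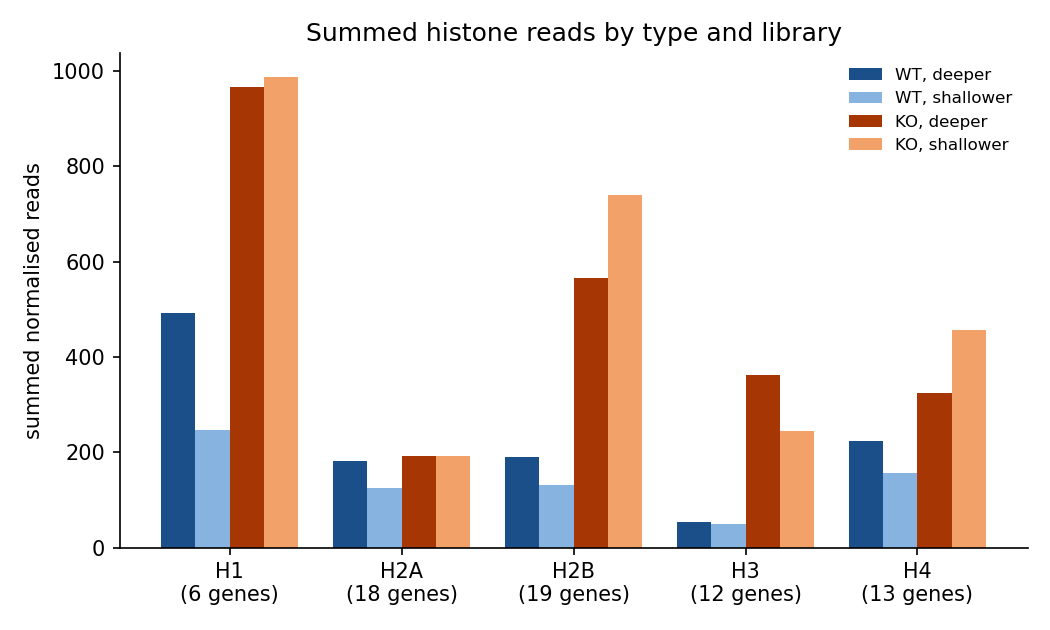
Summed normalised reads of the histone genes of each type, with 1 bar for each library. The KO bars lie above the WT bars in all 5 types, and the H2A bars lie between 126 and 193.

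By position, the Hist1 cluster summed to a ratio of 2.76 and the Hist2 cluster to 5.88, or 2.95 without Hist2h3c1. Hist3, which rests on Hist3h2a, gave 1.01. On chromosome 13 the Hist1 genes fall into a group of 23 and a group of 31, more than 500 kb apart. In the group of 23, 13 of 19 detected genes had a higher mean in KO and the sums gave a ratio of 1.93. In the group of 31, 28 of 29 did and the ratio was 3.06. Hist1h4i lies in the first group, and Hist1h1c, Hist1h1d, Hist1h2bc and Hist1h2bg lie in the second.

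A minimum set on reads per gene can favour long transcripts, and the 8 abundant genes did share a feature of length. Their annotated transcripts all ran at least 150 bases past the stop codon, as did those of 28 of the 67 genes with a stop codon. Of the 39 genes with a shorter annotated end, 0 reached the minimum. AATAAA or ATTAAA was present in the last 40 bases, on the transcript's own strand, in 5 of the 8, in 15 of the 28 and in 1 of the 39, against 73.0% of 20966 other protein-coding genes. The other protein-coding genes all had annotated bases behind the stop codon. Several of the 39, such as Hist1h3h and Hist1h4k, had 0, so that their last 40 bases are coding sequence. The low count in the 39 therefore does not show that these genes lack a signal. Since a longer transcript can collect more reads, levels were also compared per kb of annotated transcript. On that scale Hist1h1c went from 223 to 570 and Hist1h4i from 208 to 419 normalised reads per kb. Hist1h2bc went from 76.0 to 435 and Hist2h3c1 from 8.48 to 111, while Hist3h2a was at 49.3 and 49.9. Hist1h2bg went from 21.4 to 83.4, Hist2h2be from 9.25 to 18.8 and Hist1h1d, on a transcript of 7425 bases, from 0.616 to 7.30. Per kb the order of the 2 classes differed between genotypes. The median of the long-ended genes was lower in WT, at 2.86 against 4.10 for the short-ended genes. In KO it was higher, at 7.62 against 6.36. The long-ended genes summed to a ratio of 2.82 and the short-ended genes to 1.87. Below the minimum the long-ended genes gave 2.23, with 16 of 18 higher in KO, and the short-ended genes had 27 of 34 higher. The 150-base limit was set after the values were seen.

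**Figure D4:**
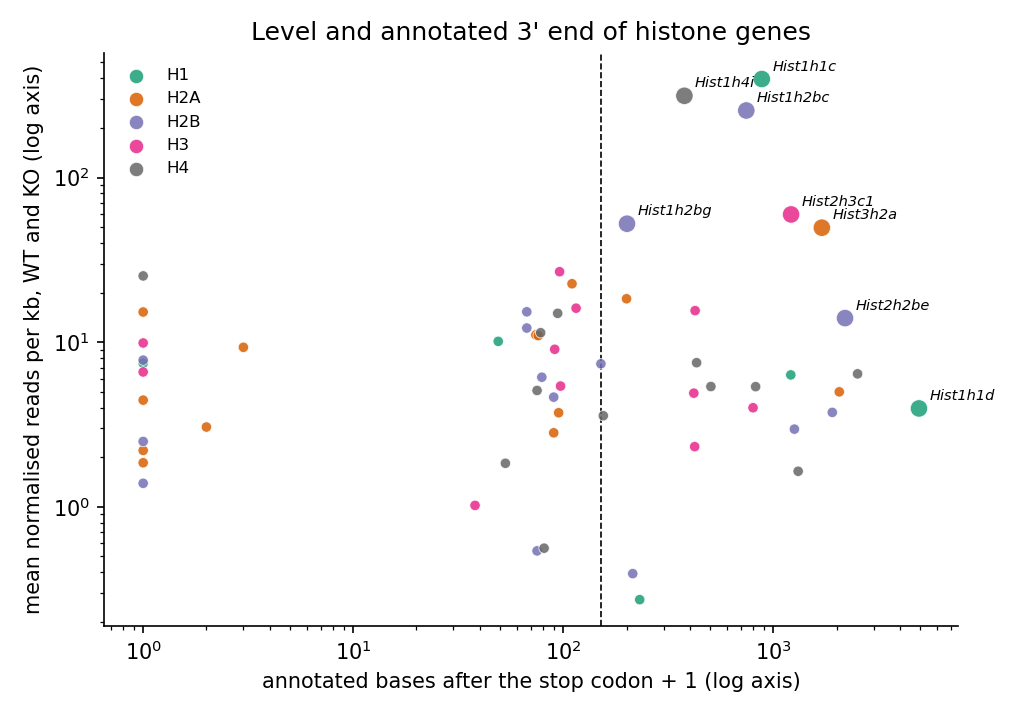
Mean normalised reads per kb over both genotypes (log axis) against the annotated bases behind the stop codon plus 1 (log axis), with 1 point for each detected histone gene that has a stop codon. Large points are the 8 genes above the minimum, which all lie right of the dashed line at 150 bases.

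Because a polyA selection was used, a higher value for one of these genes can mean more of its RNA or a larger polyadenylated share of it, and the 2 cannot be told apart here. In the same way, more cells in S phase and more RNA per cell cannot be told apart in bulk RNA. Many histone genes are near copies of each other, and how the authors' counting treated reads that match several copies is not given in the sources used here. The share of 50-base windows found in another histone gene was 49.7% for Hist1h2bg, 34.7% for Hist2h3c1, 29.4% for Hist1h2bc and 28.9% for Hist1h4i, and at most 8.54% for the other 4 abundant genes. Genes with under 50% of windows shared summed to a ratio of 2.74 and the remaining genes to 2.35. Hist2h3c1 also overlaps Gm20634, which was not analysed here, and Hist3h2a overlaps Trim17, which had means of 4.01 in WT and 6.70 in KO.

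The promoters of 3 genes are shown because they differ in the motif letters found. All 3 genes met the size rule, but Hist1h2bg and Hist2h3c1 passed the minimum only through KO. A link of the motifs to the ratios was not tested. The window of Hist1h1c held the H1 box, that of Hist1h2bg the octamer and TATAAA, and that of Hist2h3c1 none of these, while CCAAT was present in all 3. Only exact letters were searched, so a variant such as the tatatata of Hist1h1c is not marked. The window of Hist2h3c1 ends shortly behind its CCAAT, so an element further downstream would not be seen. They are from RefSeq (GRCm38.p6) and read 5′ to 3′ on the gene's strand, which is plus for all 3, with capitals for the motifs counted after them or their reverse complements.
Hist1h1c (chr13:23738557-23738856): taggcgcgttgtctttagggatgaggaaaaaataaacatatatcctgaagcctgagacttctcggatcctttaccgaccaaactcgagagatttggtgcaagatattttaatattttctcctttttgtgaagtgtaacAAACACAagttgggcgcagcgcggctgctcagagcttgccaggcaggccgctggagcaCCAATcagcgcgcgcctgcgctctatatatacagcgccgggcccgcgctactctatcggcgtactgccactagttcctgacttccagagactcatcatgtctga
Hist1h2bg (chr13:23571150-23571449): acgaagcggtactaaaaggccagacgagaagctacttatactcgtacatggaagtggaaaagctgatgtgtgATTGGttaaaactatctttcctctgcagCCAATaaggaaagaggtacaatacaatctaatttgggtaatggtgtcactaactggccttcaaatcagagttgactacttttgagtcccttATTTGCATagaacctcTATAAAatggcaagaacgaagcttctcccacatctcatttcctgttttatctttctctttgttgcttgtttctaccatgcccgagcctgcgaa
Hist2h3c1 (chr3:96246435-96246734): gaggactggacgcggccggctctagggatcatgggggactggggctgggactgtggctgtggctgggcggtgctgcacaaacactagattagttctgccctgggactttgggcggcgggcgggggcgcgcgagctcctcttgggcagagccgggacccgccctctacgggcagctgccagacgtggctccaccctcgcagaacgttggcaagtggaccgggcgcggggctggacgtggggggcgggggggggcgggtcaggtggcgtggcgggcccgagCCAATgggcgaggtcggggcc
Of the 68 genes, 61 matched a RefSeq promoter of 300 bases, and Hist1h2bc and Hist2h2be are named only. On either strand, CCAAT was present in 52 of the 61, against 37.4% of 32851 promoters, and in 3 of the 12 H4 promoters. TATAAA was present in 35, against 13.6%, and the octamer ATTTGCAT in 13, all of H2A or H2B genes, against 1.74%. The H1 box AAACACA was present in 9, of which 5 belong to the 6 H1 genes, against 7.18%. H2A and H2B genes often lie head to head, and 9 such pairs share 220 to 279 bases of these windows. Among these 9, only the pair of Hist1h2bg at a ratio of 3.89 and Hist1h2ae at 0.741 has a gene above the minimum. The difference between their ratios was not tested. Hist1h2bc and Hist2h2be had no window, so their pairs could not enter the 9. In the annotation they lie head to head with Hist1h2ac and Hist2h2ac. The ratios were 5.72 for Hist1h2bc and 2.32 (1.24 to 4.56) for Hist1h2ac. They were 2.03 for Hist2h2be and 3.02 (0.540 to 30.6) for Hist2h2ac, whose interval includes 1.

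The other genes of histone supply were read from 4 lists. The replacement histones, which are mostly made outside S phase as well and polyadenylated, had 0 higher and 2 lower of 11 by the size rule. Over all tested genes that rule called 8.92% higher and 8.56% lower, so that few calls come from lists of this size at these shares. H1fx, the linker histone H1.10, fell from 330 and 158 to 6.44 and 5.97 normalised reads. It was 39.3-fold lower, with an adjusted p of 8.18e-04 (the authors' deposited table) and of 0.0139 (limma). Cenpa, the H3 form of centromeres, was 2.06-fold lower, with an adjusted p of 0.0514 (the authors' deposited table) and of 0.117 (limma). H2afz and H3f3b, the most abundant of the list, had ratios of 1.08 and 1.36. H1f0, another linker histone, had a ratio of 1.84 (adjusted p = 0.141 in the authors' deposited table). H2afx, which carries the stem-loop and is also polyadenylated, had a ratio of 0.881.

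The list for processing, transcription and decay of histone messages had 0 higher and 0 lower of 19 by the size rule, by the authors' adjusted p and by limma, with 5 of 19 at an unadjusted limma p below 0.05, which 29.0% of all tested genes had. Slbp had a ratio of 0.889, Npat, an activator of histone gene transcription, 0.668, and the abundant Upf1 and Sympk 0.782 and 1.5. Zfp473, a U7 complex partner that was below the minimum, had 10.6 and 6.73 in WT and 28.5 and 27.9 in KO. Of 14 histone chaperones, 0 were higher and 1 was lower by the size rule, against 8.92% and 8.56% of all tested genes. Limma called 0 of the 14, with 2 at an unadjusted limma p below 0.05. The lower one was Nap1l1, at 2.19-fold, for which the authors' deposited table has an adjusted p of 0.290. Npm1 had a ratio of 0.637. Over all 4 lists, 3 genes were lower, and 1 was without the shallower WT library or without the deeper KO library. Of 18 S phase genes, 0 were higher and 0 lower by the same 3 rules, with 3 at an unadjusted limma p below 0.05. Mcm5 and Pcna, which act at the replication fork, had ratios of 0.974 and 1.43, and Ccne1, cyclin E1, had 1.80 (limma adjusted p = 0.0535). The median log2 ratio was -0.41 for replacement histones, -0.16 for message processing, -0.08 for chaperones and 0.09 for S phase, against -0.01 for all tested genes.

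**Figure D5:**
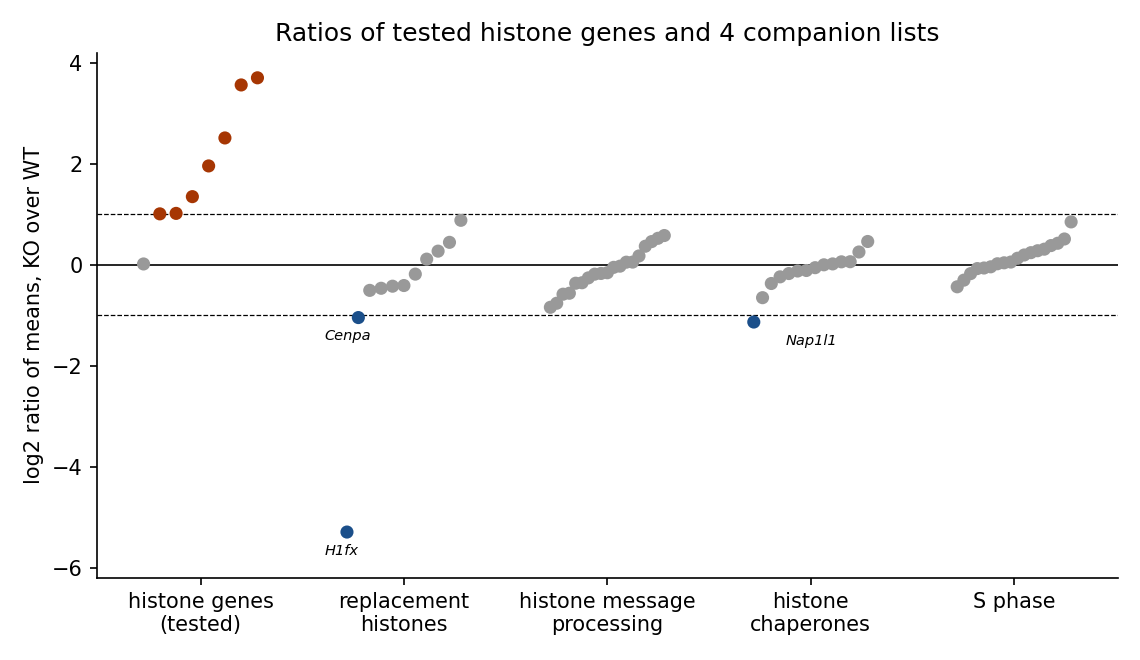
Log2 ratio of means, KO over WT, with 1 point for each gene above the minimum and dashed lines at 2-fold. Orange points were higher and blue points lower by the size rule. All 7 higher points are replication-dependent histone genes, and the lower ones are H1fx, Cenpa and Nap1l1.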

How the data were processed

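The authors deposited 1 table of gene symbols without coordinates. Per the file headers, it holds, as a signal, mean normalised read counts over both conditions and in conditions A and B, their ratio (a fold change), its log2 value, a p-value and an adjusted p-value. Condition A is taken to be WT, and B to be KO, because the table's title names them in that order; every direction rests on this. TopHat 1.4.0, DESeq 1.10.1 and build mm9 appear in the submitters' processing notes. The sources used here give neither a read counter nor an annotation. Each mean had 1 solution as whole reads of 2 libraries in 100% of genes above 0, so 3 reads correspond to 2.76 to 3.36 normalised reads.

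Computed here were ratios of means with exact 95% Clopper-Pearson intervals, which cover counting error only, since amplified reads can be copies of 1 molecule. A gene was called at 2-fold with an interval excluding 1 and a mean of 20 or more. Limma 3.58.1 in R 4.3.3 was fitted to log2(normalised reads + 1) of the 4 libraries over all 11710 tested genes, with Benjamini-Hochberg adjustment. On simulated data for this comparison and number of genes it found 80 of 100 genes changed 2-fold and 100 of 100 changed 4-fold. The simulated spread between libraries was fixed at the same value for all genes and was not estimated from these libraries. The simulated shares therefore do not give the power reached in these data. The design assumed 1 sample per genotype; limma on recovered libraries was a listed alternative. The genes named are all above the minimum, the 3 most abundant of each type, and in the other lists those called and the 2 most abundant. Others named (Hist1h1a, Hist1h1b, Hist1h1t, Hist1h2ad, Hist1h2bk, Hist1h4n, Hist3h2ba, the 7 genes at 0, Dicer1, Trim17, H1f0, H2afx, Slbp, Npat, Zfp473, Ccne1) were chosen after their values were seen. The histone genes and all lists were chosen with earlier results of these data known. Alternatives were other minimums, a 1.5-fold rule, the authors' adjusted p, limma with other pseudocounts, scaling by total reads, leaving out each library, and pairs of like depth.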

Additional observations from a re-analysis of the deposited data

How the results depend on the processing

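No paired analysis was possible because the labels give 1 sample per genotype and no replicate numbers. The count of 7 histone genes higher was 4 in the deeper pair of libraries, 4 at a mean of at least 50, 15 at a mean of at least 5 and 20 with no minimum, which also gave 1 lower. It was 4 by the authors' adjusted p at 0.1 and at 0.05, 3 by limma with each of the pseudocounts 0.5, 1 and 5, and 4 to 7 when 1 library was left out. The 4 without the shallower WT library were Hist1h1d, Hist1h2bc, Hist1h2bg and Hist2h3c1; Hist1h1c then had a ratio of 1.88, Hist1h4i 1.69 and Hist2h2be 1.89. Hist3h2a fell below 1 at 0.947 in the deeper pair, at 0.848 without the shallower WT library and at 0.894 without the deeper KO library, within a range of 0.848 to 1.26 with 1 library left out. For sums without the most abundant member, the ratio was 1.79 for H2A, 2.04 for H2B, 2.74 for H3, 2.95 for Hist2 and 0.441 for Hist3, the last from 2 WT reads and 1 KO read. The shallower pair gave 5.60 for H2B and 2.92 for H4, and Hist3 was 0.947 in the deeper pair and 0.845 to 1.25 with 1 library left out. Of the companion genes, 0 were higher and 3 lower; higher became 1 in the shallower pair, 1 at a mean of at least 5, 1 with no minimum, 2 at 1.5-fold and 0 to 1 with 1 library left out. Lower became 1 in the shallower pair, 1 by the authors' adjusted p at 0.05, 1 by limma with each pseudocount, 6 at 1.5-fold and 1 to 4 with 1 library left out. The cause of these differences was not tested, beyond the smaller number of genes or libraries that a setting leaves. Scaling by total reads moved the median of all genes by 0.06 on the log2 scale and kept the 7 higher histone genes. The sums over genes with under 50% of windows shared, and the 150-base limit, were chosen after seeing the data. Low counts limit most members: 53 of the 61 detected lie below 20 normalised reads, and the cause of the low counts was not tested.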
